A study of Mus musculus with 6 samples.

Results

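Probe sets annotated to 8 genes that shape, hold or untangle mitotic chromosomes had lower signals in bone marrow of leukemic Gfi1-KD mice than in that of leukemic Gfi1-KI mice. They are the condensin subunits Smc4, Ncapd2 and Ncapd3, the cohesin regulators Sgo1 and Wapl, the centromere proteins Cenpa and Cenpf, and the DNA topoisomerase Top2a. In the RMA signals, the log2 summary in the authors' deposited table, Cenpa had the largest difference, with a geometric mean 2.32-fold lower in Gfi1-KD, and the other 7 genes were 1.17-fold to 1.38-fold lower. The probes of the Cenpa probe set match a deposited cDNA clone but no RefSeq mRNA. In the MAS5 signals, the other summary of the arrays, Cenpa was 2.37-fold lower, Ncapd2 1.49-fold and Wapl 4.37-fold, the last from a dim probe set on the strand opposite to the gene. The genes were chosen by name from the authors' deposited table, which lists 1986 of 45101 probe sets beside 3 controls, all with an unadjusted p-value under 0.05 for this same contrast on these same arrays. They hold 9 of the listed probe sets and 8 of the 1512 genes that the table names, where Sgo1 is written Sgol1 and Wapl is written Wapal. Because the contrast itself selected them, their differences are described here without a test.

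The study compared 3 Gfi1-KD mice with 3 Gfi1-KI mice, and every mouse of both groups carried a Nup98/HoxD13 transgene driven by Vav-1, a promoter active across blood cells. Gfi1 encodes a zinc finger repressor of transcription that steers myeloid progenitors towards granulocytes. As background that the labels do not spell out, Gfi1-KI mice have the human GFI1 coding sequence at the mouse locus and Gfi1-KD mice a version of it with reduced expression. The Nup98/HoxD13 fusion gives a myelodysplastic syndrome that can become acute leukemia, and the design states that all animals were of the same age. Whole marrow was taken after lysis of red cells, and 200 ng of total RNA per mouse went onto 1 Affymetrix Mouse Genome 430 2.0 array, so the 6 arrays are 6 mice. No listed probe set carries the symbol Gfi1, and probe sets outside the list are unnamed here, so the targeted gene was not analysed here.

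Condensin is a ring of structural maintenance of chromosomes (SMC) ATPases and non-SMC subunits that compacts chromosomes for mitosis. Cohesin is a related ring that holds sister chromatids together until anaphase, and its regulators decide where and when the ring opens. The centromere, marked by a histone H3 variant, is where the kinetochore assembles and microtubules attach, and topoisomerase II untangles the sister DNA molecules before they part. Transcripts of several of these genes are known to peak in cells that pass through G2 and mitosis.

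Median MAS5 signals of the 6 arrays lay between 117 and 148. Gfi1-KI replicate 2 stood somewhat apart, with a median Pearson r of 0.905 against the other 5 arrays over 45037 probe sets, while the other arrays had medians of 0.919 to 0.932. Of 22519 probe sets tested with limma, 0 (0%) passed after Benjamini-Hochberg adjustment, and the smallest adjusted p was 0.314. At an unadjusted p under 0.05 it called 1217 probe sets, and a two-group analysis of variance called 1 after adjustment. For a single probe set, the smallest p an exact permutation test of these 6 arrays can give is 0.1.

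Promoters of genes that are transcribed in G2 and mitosis often hold a cell cycle genes homology region (CHR), the element bound by MuvB complexes, and CCAAT boxes, which NF-Y binds. Both were searched on both strands, CHR as TTTGAA or TTCGAA and the CCAAT box as CCAAT, from 250 bases before to 50 bases after each RefSeq transcription start (GRCm38.p6). Of the 8 genes, 7 had a promoter in the table, with 8 windows because Ncapd3 has 2 starts, and Smc4 was not among them. CHR letters stood in 6 of the 8 windows and CCAAT in 6, with both in 5. Over all 32851 promoters of the same length, 19.2% held CHR letters, 37.4% CCAAT and 7.52% both. Among promoters of the listed genes other than these 8 that were lower in Gfi1-KD, the shares were 15.2%, 36.5% and 6.28% of 605. Among promoters of listed genes that were higher, they were 12.7%, 33.7% and 3.73% of 804. These letters were thus not more frequent in either set of listed genes than among all promoters. No motif overlapped another in the windows described here. A match of letters is a description of the sequence and not a site of binding.

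The promoters of Cenpa, Cenpf, Ncapd2 and Top2a are printed because each holds both kinds of letters within the stretch shown. Sgo1 also holds both, but its CHR letters run past the end of that stretch. Each runs 5′ to 3′ on the strand of its gene, from 150 bases before to 30 bases after the start, as RefSeq gives it for GRCm38.p6. Capitals mark the letters of the CHR and of the CCAAT box on either strand, so that a reversed CCAAT box reads ATTGG and a reversed TTTGAA is shown as its complement. The windows lie at chr5:30666736-30666915 (plus strand) for Cenpa, chr1:189688057-189688236 (minus strand) for Cenpf, chr6:125191557-125191736 (minus strand) for Ncapd2 and chr11:99024160-99024339 (minus strand) for Top2a.
Cenpa: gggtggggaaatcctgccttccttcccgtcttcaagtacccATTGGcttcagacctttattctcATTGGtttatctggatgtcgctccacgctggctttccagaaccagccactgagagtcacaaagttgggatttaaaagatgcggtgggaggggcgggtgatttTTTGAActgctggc
Cenpf: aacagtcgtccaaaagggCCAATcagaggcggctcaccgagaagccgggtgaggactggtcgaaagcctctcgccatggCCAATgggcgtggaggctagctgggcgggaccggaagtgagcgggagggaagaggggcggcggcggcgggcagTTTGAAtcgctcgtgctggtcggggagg
Ncapd2: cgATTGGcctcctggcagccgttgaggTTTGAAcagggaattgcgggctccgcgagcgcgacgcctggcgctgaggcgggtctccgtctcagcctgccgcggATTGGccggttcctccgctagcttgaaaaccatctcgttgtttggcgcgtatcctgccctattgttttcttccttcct
Top2a: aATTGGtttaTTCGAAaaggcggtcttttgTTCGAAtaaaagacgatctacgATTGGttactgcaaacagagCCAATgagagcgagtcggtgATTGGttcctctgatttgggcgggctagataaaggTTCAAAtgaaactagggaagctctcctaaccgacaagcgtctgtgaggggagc

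The Cenpa promoter held 2 CCAAT boxes on the reverse strand, at -109 to -105 and -86 to -82 from the start, and TTTGAA at 17 to 22 after it. Cenpf had a similar order but its 2 CCAAT boxes were on the strand of the gene, with CCAAT at -132 to -128 and -71 to -67 and TTTGAA at 3 to 8 after the start. In both of these centromere genes the CHR letters came after the start and the CCAAT boxes before it. The Ncapd2 promoter held TTTGAA further upstream, at -123 to -118, between reverse CCAAT boxes at -148 to -144 and -48 to -44, with another CCAAT box at -177 to -173. Top2a had the most matches, with 4 CHR elements and 6 CCAAT boxes, and its CHR element nearest to the start lay at -23 to -18 on the reverse strand. In the Sgo1 window, TTCGAA ran from 28 to 33 and CCAAT from 3 to 7 after the start. Wapl had 2 CCAAT boxes and no CHR letters. Ncapd3 had neither in the window of its upstream start, and at its other start it had TTTGAA alone, reversed, at -249 to -244.

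**Figure D1:**
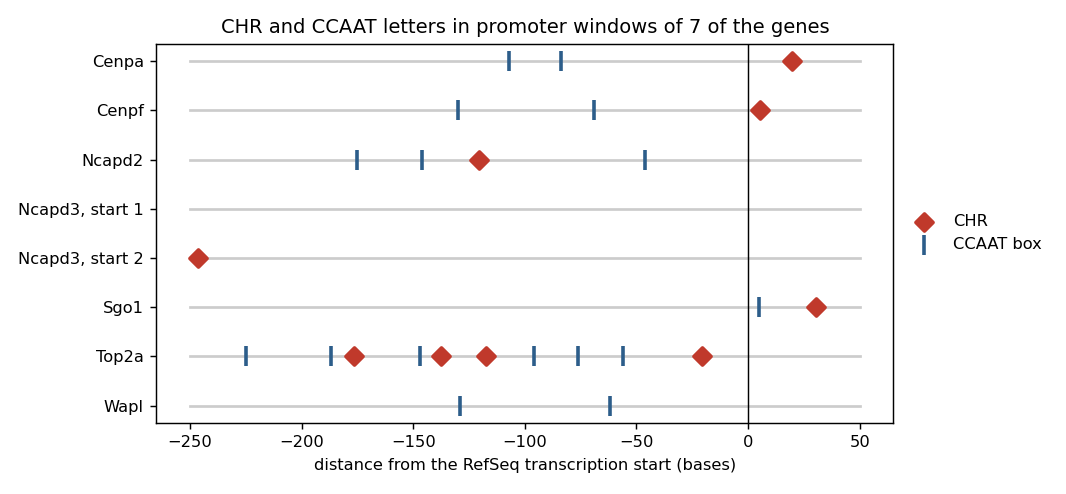
Positions of CHR letters (diamonds) and CCAAT boxes (ticks) on either strand in the 8 promoter windows, plotted by distance in bases from the RefSeq transcription start (vertical line). CHR letters lie after the start in Cenpa, Cenpf and Sgo1, and Top2a holds 4 CHR elements and 6 CCAAT boxes.

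Signals of the 8 genes are given as the log2 values of robust multi-array average (RMA) signals in the authors' deposited table, and each difference is the Gfi1-KD mean minus the Gfi1-KI mean. All 9 probe sets had a lower mean in Gfi1-KD. The deposited table lists 854 probe sets as lower in Gfi1-KD, which is 1.89% of all 45101 on the array. Of the 1986 listed probe sets that are not controls, 852 (42.9%) were lower. The median difference was -0.40 over the 9 probe sets and 0.14 over all listed ones. It was -0.24 over the listed ones that were lower. In these whole-marrow samples, fewer dividing cells and less of a transcript per cell cannot be told apart.

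Among the condensin subunits, Smc4, the SMC ATPase shared by condensin I and condensin II, had the largest difference in the RMA signals. Its probe set 1427276_at had log2 signals of 10.98, 11.20 and 10.96 on Gfi1-KD replicates 1, 2 and 3, against 11.47, 11.65 and 11.42 on Gfi1-KI replicates 1, 2 and 3. The groups did not overlap, and replicate 2 was the highest array of each group. The Gfi1-KD mean was 11.05 ± 0.14 and the Gfi1-KI mean 11.51 ± 0.12 (SD, n = 3 each), a difference of -0.47 or 1.38-fold lower.

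Ncapd2, the HEAT-repeat subunit particular to condensin I, was measured by 1430010_at. It had log2 signals of 8.01, 7.94 and 8.04 on the Gfi1-KD arrays, against 8.24, 8.28 and 8.34 on the Gfi1-KI arrays. The arrays of each genotype lay close together and the groups did not overlap. Gfi1-KD arrays averaged 8.0 ± 0.05 and Gfi1-KI arrays 8.29 ± 0.05 (SD, n = 3 each), a difference of -0.29 or 1.22-fold lower.

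Ncapd3, the corresponding HEAT-repeat subunit of condensin II, was covered by 2 probe sets designed to the same target. 1434426_at had log2 signals of 8.59, 8.86 and 8.59 on the Gfi1-KD arrays, against 9.07, 8.91 and 8.97 on the Gfi1-KI arrays. 1454952_s_at had 10.87, 11.08 and 10.86 on the Gfi1-KD arrays, against 11.18, 11.10 and 11.21 on the Gfi1-KI arrays. In both, Gfi1-KD replicate 2 was the highest Gfi1-KD array and Gfi1-KI replicate 2 the lowest Gfi1-KI array, and the groups came within 0.05 and 0.02 of each other without overlapping. For 1434426_at the Gfi1-KD mean was 8.68 ± 0.16 and the Gfi1-KI mean 8.98 ± 0.09 (SD, n = 3 each), a difference of -0.30 or 1.23-fold lower. For 1454952_s_at they were 10.94 ± 0.12 for Gfi1-KD and 11.16 ± 0.06 for Gfi1-KI (SD, n = 3 each), a difference of -0.23 or 1.17-fold lower. The 2 probe sets of Ncapd3 thus gave the same direction and like sizes. Both were listed through the same contrast and share a target, so that this is no independent check.

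Sgo1, shugoshin, protects cohesin at the centromere until anaphase. Its probe set 1439510_at had log2 signals of 8.54, 8.97 and 8.63 on the Gfi1-KD arrays, against 9.02, 9.12 and 9.20 on the Gfi1-KI arrays. Gfi1-KD replicate 2 lay near the Gfi1-KI arrays, 0.05 below the lowest of them, and the other Gfi1-KD arrays lay further down. The Gfi1-KD mean was 8.71 ± 0.23 and the Gfi1-KI mean 9.11 ± 0.09 (SD, n = 3 each), a difference of -0.40 or 1.32-fold lower.

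Wapl releases cohesin from chromatin. Its probe set 1457320_at was dim, with log2 signals of 5.31, 5.28 and 5.49 on the Gfi1-KD arrays, against 5.56, 5.60 and 5.59 on the Gfi1-KI arrays. The Gfi1-KI arrays were nearly equal, and Gfi1-KD replicate 3 lay closest to them without overlap. Gfi1-KD arrays averaged 5.36 ± 0.11 and Gfi1-KI arrays 5.59 ± 0.02 (SD, n = 3 each), a difference of -0.23 or 1.17-fold lower. As described with the probe set positions, this probe set aligns to the strand opposite to Wapl, so that its signal may not be that of the Wapl transcript.

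Cenpa, the histone H3 variant that marks the centromere, had both the largest difference and the largest spread in the RMA signals. Its probe set 1444416_at had log2 signals of 6.74, 6.76 and 5.79 on the Gfi1-KD arrays, against 8.21, 7.36 and 7.37 on the Gfi1-KI arrays. Gfi1-KD replicate 3 was far below the other Gfi1-KD arrays and Gfi1-KI replicate 1 far above the other Gfi1-KI arrays, and the groups did not overlap. The Gfi1-KD mean was 6.43 ± 0.55 and the Gfi1-KI mean 7.65 ± 0.49 (SD, n = 3 each), a difference of -1.21 that leaves 43.1% of the Gfi1-KI signal. As described with the probe set positions, its probes match no RefSeq mRNA and no alignment was given, so that the signal may not be that of the Cenpa mRNA. Leaving out Gfi1-KD replicate 3 made the difference -0.89. Ranked by size, this difference was number 27 of the 852 listed probe sets that were lower in Gfi1-KD, and that of the next gene, Smc4, was number 137.

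Cenpf, a large protein of the outer kinetochore that accumulates in G2, was measured by 1427161_at. It had log2 signals of 9.67, 10.09 and 9.82 on the Gfi1-KD arrays, against 10.27, 10.41 and 10.18 on the Gfi1-KI arrays. Gfi1-KD replicate 2 was again the highest of its group and lay 0.09 below the lowest Gfi1-KI array. On average it was 9.86 ± 0.21 in Gfi1-KD marrow, against 10.29 ± 0.12 in Gfi1-KI marrow (SD, n = 3 each), a difference of -0.43 or 1.35-fold lower.

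Top2a, the topoisomerase II isoform of dividing cells, was measured by 1442454_at. It had log2 signals of 7.39, 7.64 and 7.55 on the Gfi1-KD arrays, against 7.91, 7.87 and 8.01 on the Gfi1-KI arrays. The groups lay 0.23 apart, and Gfi1-KD replicate 1 was the lowest array. The Gfi1-KD mean was 7.53 ± 0.13 and the Gfi1-KI mean 7.93 ± 0.07 (SD, n = 3 each), a difference of -0.40 or 1.32-fold lower.

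**Figure D2:**
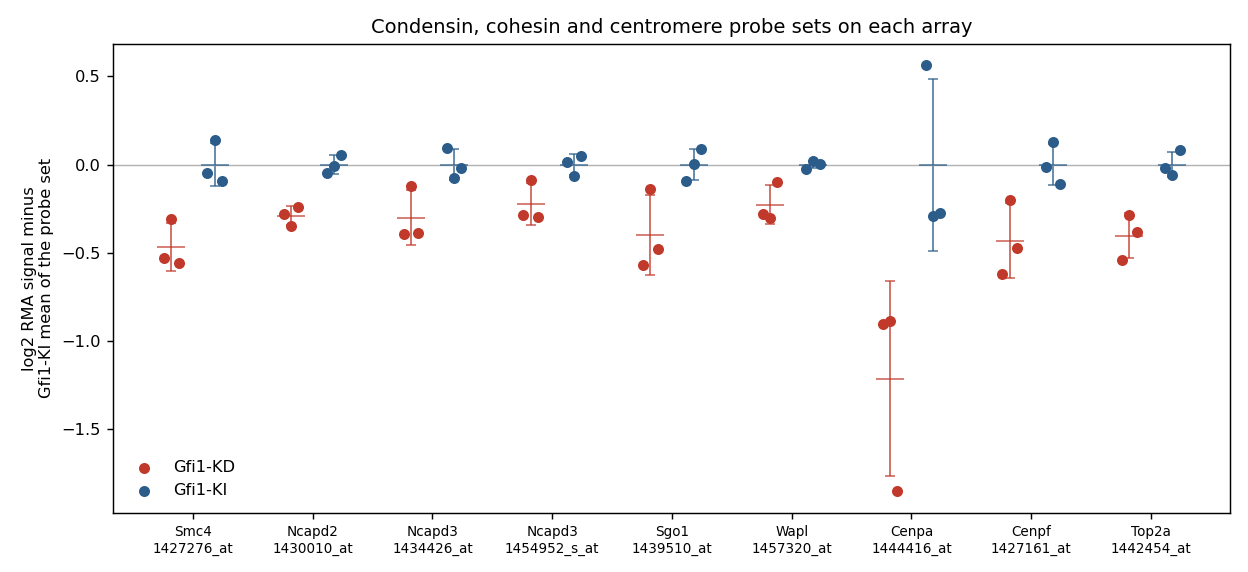
Log2 RMA signals of the 9 probe sets on each array (points; Gfi1-KD left of Gfi1-KI), minus the Gfi1-KI mean of the probe set, with group means and SDs (n = 3 each). Every Gfi1-KD point lies below every Gfi1-KI point of its probe set, and Cenpa has the largest difference, -1.21, and the widest spread.

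In all 9 probe sets every Gfi1-KD array lay below every Gfi1-KI array, and among the 1986 listed probe sets the groups were separate in 99.9%, since the table was selected for such differences. The authors' deposited table gives unadjusted p-values from 0.00252 for Ncapd2 to 0.0478 for Sgo1, the one nearest to the limit of the list. The same table gives every one of the 9 a step-up adjusted p-value of 0.911. Probe sets just beyond the limit are not listed and have no values there.

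The MAS5 signals, a separate summary of the same arrays that covers all 45101 probe sets, gave a lower Gfi1-KD mean for all 9 probe sets as well. Such a match is common in the list, where 1763 of 1986 probe sets had the same direction in both summaries. Over the 22519 probe sets tested with limma, the Gfi1-KD arrays were all lower than the lowest Gfi1-KI array in 4.57%. This was so in 6 of the 9, with Wapl, which was too dim to be tested, among the 6, and among all listed probe sets the groups were separate in 44.7%. The median MAS5 log2 difference was -0.35 over the 9 and 0.20 over all listed probe sets, which include those higher in Gfi1-KD. Of the 9, 8 passed the level filter, a mean log2 signal of at least 6.95, and Wapl did not. In the limma fit across all tested probe sets, 1 of these 8, that of Cenpa, had an unadjusted p under 0.05. Lower probe sets with such a p made up 1.69% of those tested. Of the 1034 listed probe sets that passed the filter, 440 had such a p in either direction. These values come from the arrays that selected the genes and add no independent evidence.

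For Cenpa, the MAS5 signals were 221, 197 and 137 on the Gfi1-KD arrays, against 665, 306 and 391 on the Gfi1-KI arrays, a log2 difference of -1.24 that is close to that of the RMA signals. The same 2 arrays, Gfi1-KD replicate 3 and Gfi1-KI replicate 1, lay at the ends. For Smc4 they were 4906, 5730 and 5006 on the Gfi1-KD arrays, against 6537, 7274 and 6103 on the Gfi1-KI arrays, a log2 difference of -0.35 with separate groups. For Sgo1 they were 792, 941 and 797 on the Gfi1-KD arrays, against 1098, 964 and 1167 on the Gfi1-KI arrays, a log2 difference of -0.35 with separate groups. In these 3 genes the MAS5 values thus kept the groups apart.

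In Cenpf and Top2a and in 1 of the Ncapd3 probe sets the groups overlapped in the MAS5 signals. Cenpf had 1981, 2557 and 2030 on the Gfi1-KD arrays, against 2849, 3198 and 2486 on the Gfi1-KI arrays, with Gfi1-KD replicate 2 above Gfi1-KI replicate 3 and a log2 difference of -0.38. Top2a had 360, 377 and 278 on the Gfi1-KD arrays, against 471, 361 and 432 on the Gfi1-KI arrays, a log2 difference of -0.32. Here Gfi1-KD replicate 2 lay above Gfi1-KI replicate 2, and the difference was -0.18 without Gfi1-KD replicate 3. Ncapd3 1454952_s_at had 4442, 5411 and 4681 on the Gfi1-KD arrays, against 5877, 5202 and 6061 on the Gfi1-KI arrays, a log2 difference of -0.24. Its other probe set, 1434426_at, had 732, 728 and 728 on the Gfi1-KD arrays, against 980, 788 and 887 on the Gfi1-KI arrays, a log2 difference of -0.27 with separate groups.

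Ncapd2 and Wapl differed in size between the 2 summaries. Ncapd2 had MAS5 signals of 432, 328 and 572 on the Gfi1-KD arrays, against 649, 599 and 687 on the Gfi1-KI arrays, a log2 difference of -0.57 where RMA gave -0.29. The Gfi1-KD arrays spread more widely there than in the RMA signals, and without Gfi1-KD replicate 2 the MAS5 difference was -0.37. Wapl had 8.04, 8.70 and 9.27 on the Gfi1-KD arrays, against 15.5, 49.8 and 70.1 on the Gfi1-KI arrays, a log2 difference of -2.13 where RMA gave -0.23. All of these signals lay below the level filter, a signal of 124, and the size of the Wapl difference is not settled by them.

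**Figure D3:**
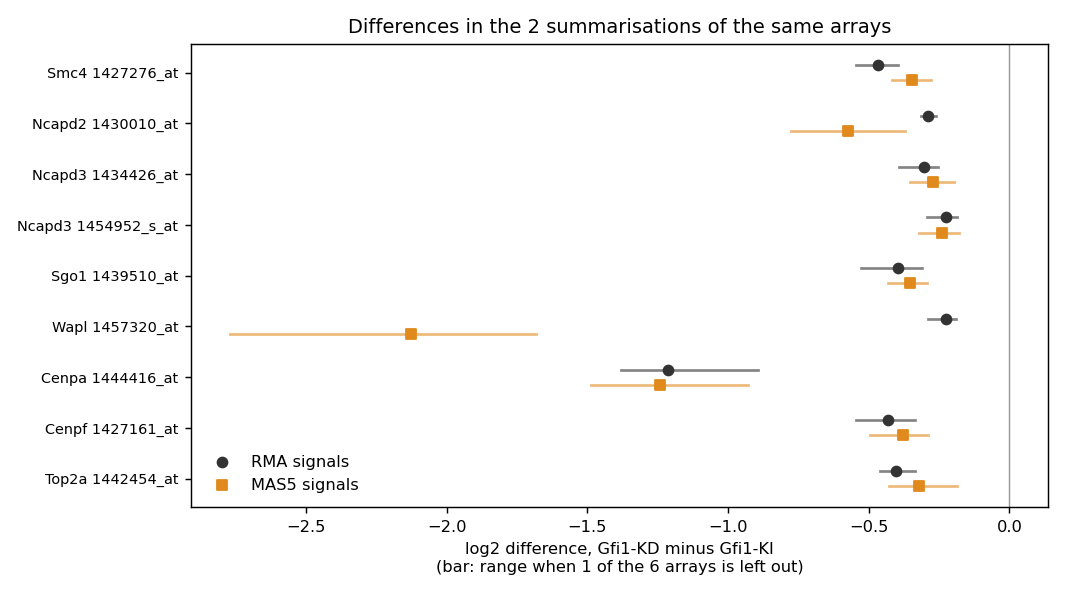
Log2 difference, Gfi1-KD minus Gfi1-KI, of each probe set in the RMA signals (circles) and the MAS5 signals (squares), with bars for the range when 1 of the 6 arrays is left out. All differences and ranges lie below 0, and Wapl, with -0.23 and -2.13, and Ncapd2, with -0.29 and -0.57, differ most between the summaries. Where the groups did not overlap, leaving out 1 array cannot take the range past 0.

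The probe sets differ in which part of the gene they read. By the annotation in the authors' deposited table, the probes of 5 of the 9 probe sets match a RefSeq mRNA, where 66.9% of the 1711 listed probe sets with 1 symbol do. These 5 are those of Smc4, Ncapd3, Sgo1 and Cenpf, with 11 matching probes each. The target of Smc4 aligns to chr3:69004983-69031465 on the plus strand, which spans most of the gene, and that of Ncapd3 to chr9:27074320-27095319 on the plus strand (GRCm38), ending 1203 bases from the gene's 3′ end. Both span long stretches of their gene. Those of Sgo1 (chr17:53674786-53675778, minus strand) and Cenpf (chr1:189641106-189660073, minus strand) end 0 and 500 bases from the gene's 3′ end.

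The other 4 probe sets have no such match. For Ncapd2 and Top2a, 11 probes match a deposited cDNA clone, and for Cenpa 10 probes do. The Ncapd2 target aligns to chr6:125175847-125181085 on the minus strand, inside the gene and 7840 bases from its 3′ end. The Top2a target aligns to 1002 bases at chr11:99016590-99017591 on the minus strand, 23643 bases from the 3′ end, and the annotation notes 10 other transcripts that may cross-hybridise to it. Both thus read an inner stretch of the gene and not its 3′ end, and whether that stretch is exonic was not analysed here. For Cenpa (chromosome 5, 30666877 to 30674837) no alignment of the target was given. The annotation also notes transcripts that may cross-hybridise to the probe sets of Smc4 (3), Ncapd2 (2) and Ncapd3 1434426_at (1).

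The Wapl target aligns to 584 bases at chr14:34674083-34674666 on the minus strand, while Wapl is on the plus strand, 1704 bases past the gene's first base. Such an opposite strand was found for 25 of 1222 listed probe sets (2.05%). The 5 probe sets that match a RefSeq mRNA are among the 9 that were lower in Gfi1-KD by both summaries. Counting them alone is thus no further check.

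**Figure D4:**
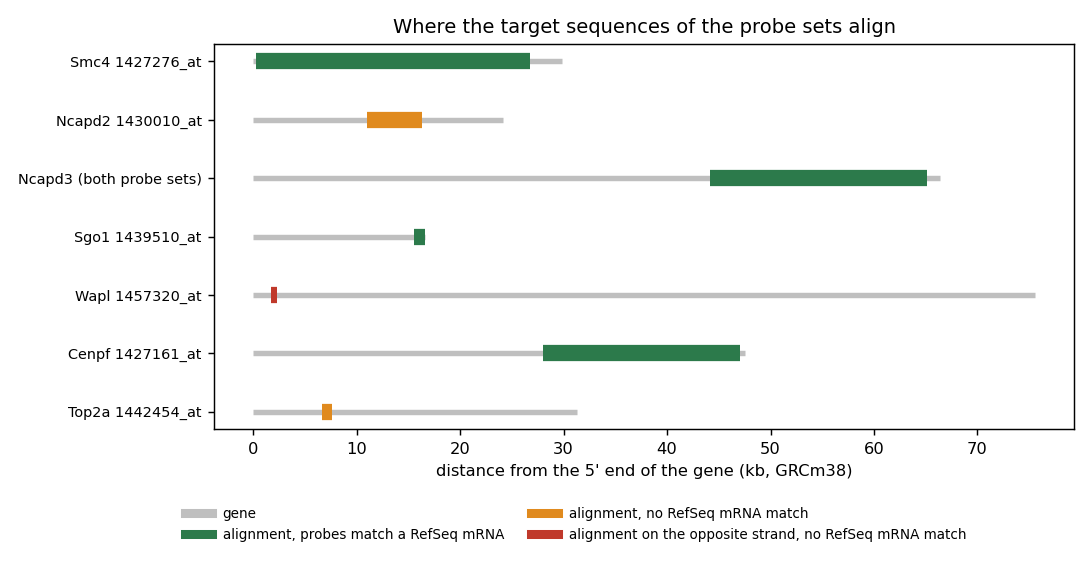
Aligned target of each probe set (thick bars) along its gene (grey), by distance in kb from the gene's 5′ end in GRCm38, with the orientation of Smc4 taken from its alignment. Targets of Ncapd3, Sgo1 and Cenpf reach the 3′ end of the gene or nearly so, those of Ncapd2 and Top2a lie inside it, and that of Wapl is on the opposite strand. Cenpa has no alignment and is not drawn.

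Array by array, the 8 genes did not differ to the same extent in the 3 Gfi1-KD mice. Relative to the Gfi1-KI mean of each gene, and with the brightest probe set of Ncapd3, the mean log2 signal over the 8 genes was -0.50, -0.32 and -0.55 on Gfi1-KD replicates 1, 2 and 3, against 0.04, -0.02 and -0.02 on Gfi1-KI replicates 1, 2 and 3. Without Cenpa it was -0.44, -0.24 and -0.36 on the Gfi1-KD arrays, against -0.03, 0.02 and 0.01 on the Gfi1-KI arrays. Gfi1-KD replicate 2 was thus the Gfi1-KD array closest to the Gfi1-KI arrays. It was the highest Gfi1-KD array in 7 of the 9 probe sets, all but those of Ncapd2 and Wapl, where replicate 3 was highest. Over all 852 listed probe sets that were lower, Gfi1-KD replicate 2 was the highest Gfi1-KD array in 44.7%. Without Gfi1-KI replicate 2, the array that stood apart, the RMA differences ran from -0.22 for Wapl to -1.36 for Cenpa. Since the groups did not overlap in any of the 9, leaving out an array could not have changed a direction.

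**Figure D5:**
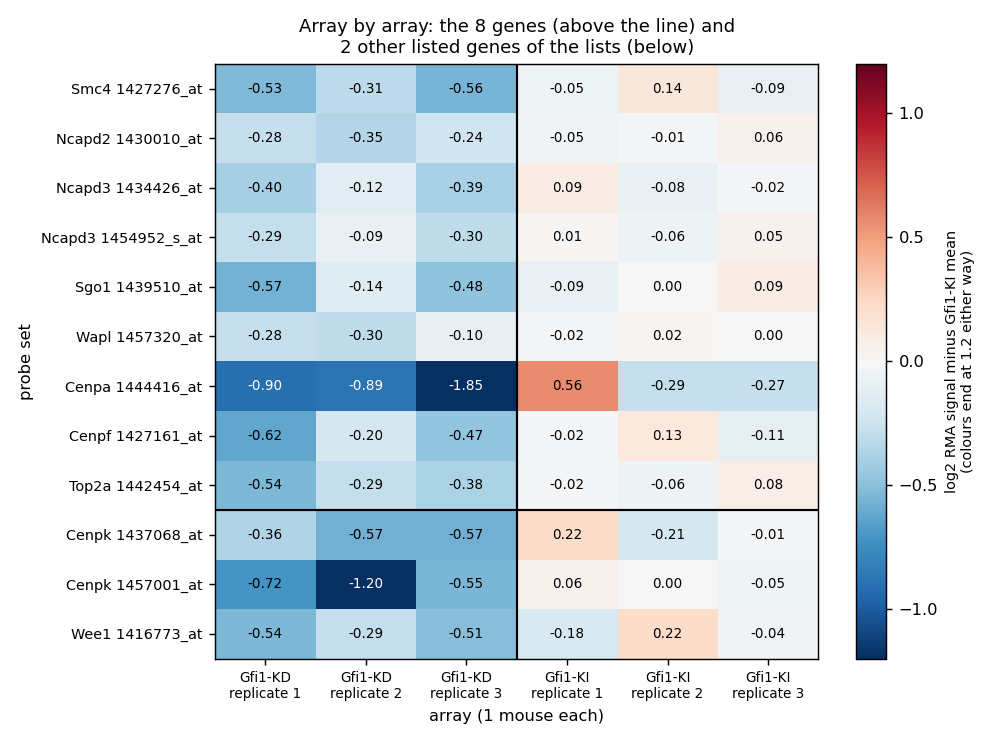
Log2 RMA signal of each probe set on each array minus its Gfi1-KI mean, with the 9 probe sets of the 8 genes above the horizontal line, those of Cenpk and Wee1 below it, and the Gfi1-KD arrays left of the vertical line. Blue marks values below the Gfi1-KI mean. In 7 of the 9 probe sets Gfi1-KD replicate 2 is the palest of the Gfi1-KD arrays.

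The profiles over the 6 arrays were compared by the root mean square (RMS) of the difference between mean-centred log2 RMA signals, which is small where 2 genes have the same size and order of values. Among the 8 genes the closest pairs were Ncapd2 with Wapl (0.0589), Cenpf with Smc4 (0.0664) and Sgo1 with Top2a (0.0832). Cenpa stood apart from the other 7, at 0.563 to 0.691. Of 1504 other listed genes, those closest to Smc4 were Cul5, a cullin scaffold of ubiquitin ligases (0.0508), and U2af1, a splicing factor (0.0543). The splicing factor came up again for the kinetochore protein. U2af1 (0.0438) and Suz12, a subunit of the Polycomb complex PRC2 (0.0627), were closest to Cenpf. Ank3 (0.0296) and Aqr (0.0353) were closest to Ncapd2, and Agbl4 (0.0227) and Dusp8 (0.0311) to Ncapd3. The 8 genes were not candidates here, so of the gene lists only Cenpk and Wee1 could have come up, and neither did. Lcmt1 (0.0646) and Mrpl55 (0.0724) were closest to Sgo1, Vcpip1 (0.0260) and Gapvd1 (0.0304) to Wapl, and Lnpk (0.0352) and 8430406P12Rik (0.0532) to Top2a. Even the closest genes to Cenpa, 1700097N02Rik (0.230) and Scnn1a (0.335), were further off. All of these genes share the selection by the same contrast and the same 6 arrays.

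Most other genes of the same complexes were not listed, and their probe sets have no name here. Of the 8 condensin genes, 3 were listed, all lower in Gfi1-KD, namely the 3 described above. Of 19 genes of cohesin and its regulators, 2 were listed, Sgo1 and Wapl, so that no ring subunit of cohesin was among them. None of the 6 genes of the related SMC5/6 complex and none of 14 genes of the chromosomal passenger complex and spindle checkpoint were listed. Of 8 genes of topoisomerases and the mitotic chromosome surface, Top2a alone was listed. A gene that is not listed had no unadjusted p under 0.05 in the authors' deposited table or has no probe set of its name there, which does not show that its level was equal in both groups.

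Of 35 centromere and kinetochore genes, 3 were listed and all 3 were lower in Gfi1-KD, namely Cenpa, Cenpf and Cenpk. Cenpk is a subunit of the inner kinetochore network that sits on CENP-A chromatin. Its probe set 1437068_at averaged 6.15 ± 0.12 on the Gfi1-KD arrays, against 6.65 ± 0.21 on the Gfi1-KI arrays (SD, n = 3 each), a log2 RMA difference of -0.50. Its other probe set, 1457001_at, averaged 4.67 ± 0.34 on the Gfi1-KD arrays, against 5.49 ± 0.05 on the Gfi1-KI arrays (SD, n = 3 each), a difference of -0.82. Of 24 other genes of G2 and mitosis, among them the mitotic cyclins and kinases, 1 was listed. This was Wee1, the kinase that holds Cdk1 inactive before mitosis, which averaged 10.14 ± 0.14 on the Gfi1-KD arrays, against 10.58 ± 0.20 on the Gfi1-KI arrays (SD, n = 3 each), a difference of -0.44. Both genes were selected by the same contrast as the 8.

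The process and component annotation in the deposited table was searched for words, for listed genes beside the 8. A match to the words inside any longer term also counted. Of 11 others under mitotic nuclear division, 9 were lower in Gfi1-KD (Clasp1, Dclre1a, Haus2, Kifc5b, Ofd1, Tpr, Ttyh1, Vcpip1 and Wee1) and 2 were higher (Phf13 and Vrk1). Of 8 others under kinetochore, 7 were lower (Cenpk, Clasp1, Pbrm1, Ppp1cc, Psen2, Sin3a and Tpr) and 1, Trp53bp1, was higher. Under the wider term cell division, 17 of 29 others were lower and 12 higher. The word mitosis matched none of the 8 genes. Of 8 others that it matched, 4 were lower (Clasp1, Igf1r, Ofd1 and Tpr) and 4 higher (Cd28, Egf, Eps8 and Tgfb1). Under centromeric region, 4 of 6 others were lower and 2 higher. Under chromosome segregation, 2 of 3 others were lower. Under chromosome condensation, 2 of 3 others were lower, Mcph1 and Ttn, and Phf13 was higher. For comparison, 42.9% of all listed probe sets were lower. The terms were looked up with the values known, and no test was made of them.

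Markers of other cell types differed between the same groups. Of 17 markers of late granulocytes, 4 were listed (Ceacam10, Itgb2l, Lrg1 and Ltf), all lower in Gfi1-KD, with a summed MAS5 signal of 458 to 4960 on Gfi1-KD arrays, against 21739 to 49784 on Gfi1-KI arrays. Of 14 markers of monocytes and macrophages, 6 were listed, all higher, with sums of 57844 to 83717 on Gfi1-KD arrays, against 28843 to 43743 on Gfi1-KI arrays. These counts cover the listed markers, and the other 13 late granulocyte and 8 monocyte markers were not listed. Of 12 erythroid markers, 1, Epb41, was listed and was lower (1373 to 1646 on Gfi1-KD arrays, against 1817 to 3323 on Gfi1-KI arrays). Listed B cell markers (2 of 11, Fcrla and Pax5) and T and NK cell markers (1 of 10, Cd28) were higher, the B cell ones with overlapping sums of 174 to 198 on Gfi1-KD arrays, against 53.3 to 196 on Gfi1-KI arrays. The probe sets of Fcrla and Pax5 were dim and did not pass the level filter. The T and NK cell sums were 415 to 999 on Gfi1-KD arrays, against 215 to 272 on Gfi1-KI arrays. No marker of early granulocytes (of 7), stem and progenitor cells (of 9) or megakaryocytes (of 6) was listed, so these were not checked here. Of the 19 listed marker probe sets, 0 had a signal of 0 on any array.

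Some markers also followed single arrays. Ltf, the granule protein lactoferrin, had log2 RMA signals of 10.49, 10.32 and 6.70 on the Gfi1-KD arrays, against 12.90, 13.16 and 14.13 on the Gfi1-KI arrays, so that it was lowest on Gfi1-KD replicate 3, as Cenpa was. Among the Gfi1-KI arrays the order differed, since replicate 1 was the lowest for Ltf and the highest for Cenpa. Adgre1, a surface receptor of macrophages, had 11.81, 11.13 and 12.09 on the Gfi1-KD arrays, against 10.70, 10.09 and 10.32 on the Gfi1-KI arrays. Gfi1-KD replicate 2, on which 7 of the 9 chromosome probe sets were closest to Gfi1-KI, was its lowest Gfi1-KD array. Of the other listed monocyte markers, Csf1r, Ctss, Cx3cr1 and Hmox1 were also lowest there among the Gfi1-KD arrays. Ccr2 went the other way and was highest there, with 9.07, 9.44 and 9.18 on the Gfi1-KD arrays. The part of cell composition in the differences of the 8 genes was not tested.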

How the data were processed

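Total RNA of 6 marrow samples was hybridised to 1 array each, and groups follow the genotype in the labels. Replicate numbers follow the order of deposit. Per the submitters' processing notes MAS5 made the first deposited table, with a linear intensity for each probe set on each array. The authors also deposited a comparison table with log2 RMA signals, an analysis-of-variance p-value and its step-up value, a ratio (kd over wt) and a fold score with a sign, per the file headers. Its group wt was read as Gfi1-KI, because the ratio recomputed from the labelled groups matched within 0.1% for every listed probe set. Software and builds behind that table are not given in the sources used here.

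The 8 genes, the gene lists, the cell type markers and the named-gene rule (all probe sets of the 8, every listed gene of the lists, the 2 nearest profiles of each) were chosen with earlier results of these data known. MAS5 signals were floored at 1 and logged. limma 3.58.1 (R 4.3.3; lmFit, eBayes with a trend, two-sided, Benjamini-Hochberg) ran on 22519 probe sets at or above the median mean log2 signal of 6.95 and was tested on simulated data. It gave the background; the 8 genes were part of this fit, but since the same contrast selected them, their p-values are read as descriptions. Folds are ratios of geometric means. Symbols, coordinates and promoters came from RefSeq (GRCm38.p6). Other steps used matplotlib 3.10.9, scipy 1.17.1, numpy 2.4.6, pandas 2.3.3 and Python 3.11.15. Alternatives were other filters, normalizations, added constants and leaving out each array. The number of arrays limits the precision.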

Additional observations from a re-analysis of the deposited data

How the results depend on the processing

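No paired analysis was possible because the replicate numbers were given in deposit order and pair no animals. The 9 probe sets stayed lower in Gfi1-KD under every alternative run, with no reversal. Where the groups did not overlap, as in all 9 by RMA, leaving out 1 array could not have reversed a difference. Of their differences under alternatives, 88 MAS5 and 61 RMA values moved by less than the spread between replicates and 2 of each moved further. With 3 arrays a group, leaving out 1 cannot move a difference by more than this spread. Those values thus had to count as small moves. The MAS5 difference of Wapl was -1.19 with 16 added to each signal and -0.55 with 64 added, where all its signals are low. From the RMA to the MAS5 signals the difference of Wapl became -2.13 and that of Ncapd2 -0.57. Leaving out 1 array gave RMA differences of -1.38 to -0.89 for Cenpa, and MAS5 differences of -0.43 to -0.18 for Top2a and -0.77 to -0.37 for Ncapd2. An alternative chosen after seeing the data, probe sets with a RefSeq mRNA match, left 5 of 5 lower by both summaries. This had to be so, since they are part of the 9. The limma count of 0 probe sets became 1 with a two-group analysis of variance and was 0 in all other settings run. With 3 arrays a group and no name for unlisted probe sets, other probe sets of the 8 genes were not analysed here.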
